A study of Mus musculus with 298 samples.

Results

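Microglial RNA reached a set level in 86 cells sampled from the SCN, the suprachiasmatic nucleus of the mouse hypothalamus that holds the daily clock. These 86 members are described here against the 211 other cells, which together make up all distinct cells, 28.96% of them members. A cell was a member when the summed level of Cx3cr1, C1qa, C1qb, Csf1r, Tmem119, Ctss, P2ry12 and Aif1 reached 100 CPM (the unit CPM scales a gene's counts to the same total in every cell). The deposited libraries held 1 near-identical pair, S70 and S71, which was counted as 1 cell. These 8 genes, called the rule genes below, chose the members, so their levels and those of every other gene in the same cells are given as descriptions with no test.

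Each library was made from the cytoplasm of a single SCN neuron drawn into the patch pipette after an electrical recording in a brain slice, and the labels call all of them interneurons of the suprachiasmatic nucleus. The light cycle of the mice was 12 h light and 12 h dark. Slices for day cells were prepared around the onset of light (ZT0), and those for the 161 night cells around the onset of dark (ZT12). Cells were labelled active (165), silent (118) or depolarized (14) by their firing and cFOS+ (148) or cFOS- (148), and the merged pair, labelled cFOS- in one library and cFOS+ in the other, was given neither. The labels name no strain, age, sex, animal or slice, and several cells could come from 1 slice, so each group of cells counts as 1 sample and no p-value was computed. A member's library held about 3329630 to 25535300 counts, at a median of 6249500, and the median of the other cells was about 6371980. The median number of genes with a count was 4473.5 in members and 4474 in the other cells, so members and other cells were sequenced to a like depth.

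Microglia are the resident macrophages of the brain and touch neurons with fine, motile processes. They sense signals from neurons through receptors such as P2ry12, for nucleotides, and Cx3cr1, for the neuronal chemokine Cx3cl1, and they depend on the receptor Csf1r for survival. They are the main brain source of the complement component C1q, and when activated they release cytokines and chemokines such as Il1a, Tnf, Ccl3 and Ccl4 through NF-kB signalling.

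1 member went against its neuron label. Cell S537 (night, active, cFOS-) had the highest sum of rule genes of any cell, 25064 CPM, and a summed level of 16 neuron markers of only 158 CPM, where the next lowest of all cells had 1877 CPM and the next lowest member 2138 CPM. It held 2630 genes with a count, with Ctss at 14951 CPM, Ccl4 at 5181 CPM and the myelin gene Mbp at 3792 CPM, while Csf1r, P2ry12 and Tmem119 had no count. Pooled values below include this cell, and only some of them are also given without it. Without it the members' pooled level of Ptgs1 was 53.9 in place of 68.8 CPM. That of Fcrls was 96.6 in place of 112 CPM, and that of Trf 229.9 in place of 264.9 CPM.

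The genes of the complement C1q chains, C1qa, C1qb and C1qc, lie side by side on chromosome 4 in GRCm38 (GENCODE M21). C1qb spans chr4:136880129-136886187, C1qc chr4:136889804-136893065 and C1qa chr4:136895917-136898803, all on the minus strand. Since the genes described below were detected together in single cells, the bases upstream of their starts were searched for 2 short motifs of factors known in myeloid cells. These were GAGGAAGT for PU.1, the product of Spi1, and the 10-base NF-kB consensus, both on either strand and over 250 bases before each RefSeq start. PU.1 letters stood upstream of 4 of 34 microglia identity genes outside the rule with a sequence (11.8%), of none of 5 rule genes and of 2.59% of 9084 measured genes. Of those 4, only C1qc and Inpp5d kept the letters when bases inside an annotated transcript were left out. NF-kB letters stood upstream of 5 of 13 measured cytokine and NF-kB response genes with a sequence (38.5%), of 2 of 34 identity genes (5.88%) and of 5.38% of measured genes. Among those 5, the matches of Tlr2 and Tnfaip3 lay in bases inside an annotated transcript. The list was named for the NF-kB response, so a high share was built in and says nothing about these cells. Shown are C1qc, for the PU.1 letters, and Nfkbia, Cxcl10 and Cxcl2, for the NF-kB letters, from RefSeq on GRCm38.p6, read 5′ to 3′ along the gene's strand, with those matches in capitals and bases inside an annotated transcript left out, although the counts used the full 250 bases.
C1qc (chr4:136893066-136893164, minus strand): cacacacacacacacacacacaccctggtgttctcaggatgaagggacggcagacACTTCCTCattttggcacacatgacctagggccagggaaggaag
Nfkbia (chr12:55492648-55492897, minus strand): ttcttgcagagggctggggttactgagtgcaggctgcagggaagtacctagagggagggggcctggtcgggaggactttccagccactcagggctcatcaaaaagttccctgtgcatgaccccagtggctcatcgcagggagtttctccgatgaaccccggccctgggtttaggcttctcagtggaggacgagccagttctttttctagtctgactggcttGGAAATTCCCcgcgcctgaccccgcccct
Cxcl10 (chr5:92348890-92349139, minus strand): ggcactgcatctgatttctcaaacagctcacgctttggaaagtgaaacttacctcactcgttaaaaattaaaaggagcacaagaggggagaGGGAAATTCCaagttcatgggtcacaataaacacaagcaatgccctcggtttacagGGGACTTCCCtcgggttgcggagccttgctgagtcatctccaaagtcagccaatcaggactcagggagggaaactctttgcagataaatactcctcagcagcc
Cxcl2 (chr5:90903649-90903870, plus strand): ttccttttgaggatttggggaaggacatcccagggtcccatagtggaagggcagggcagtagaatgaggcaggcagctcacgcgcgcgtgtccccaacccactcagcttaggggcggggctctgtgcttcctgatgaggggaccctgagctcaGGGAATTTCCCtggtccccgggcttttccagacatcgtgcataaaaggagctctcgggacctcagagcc
A match is a description of letters, not of a bound site, and Il6 carried the NF-kB letters too while no count of Il6 was found in members.

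The summed level of the rule genes ranged from 101.3 to 25064 CPM in members, with a median of 790 CPM, and from 0 to 98.3 CPM in the other cells, 117 of which had no count of any rule gene. Just inside the threshold lay cells S404 (101.3 CPM), S62 (107 CPM) and S487 (109 CPM), and just outside it cells S281 (98.3 CPM), S544 (98.2 CPM) and S29 (92.4 CPM). Each of these 6 cells carried a single rule gene at 5 CPM or more, the level from which a gene is counted as present in a cell below. The threshold therefore cut through cells that looked alike.

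**Figure D1:**
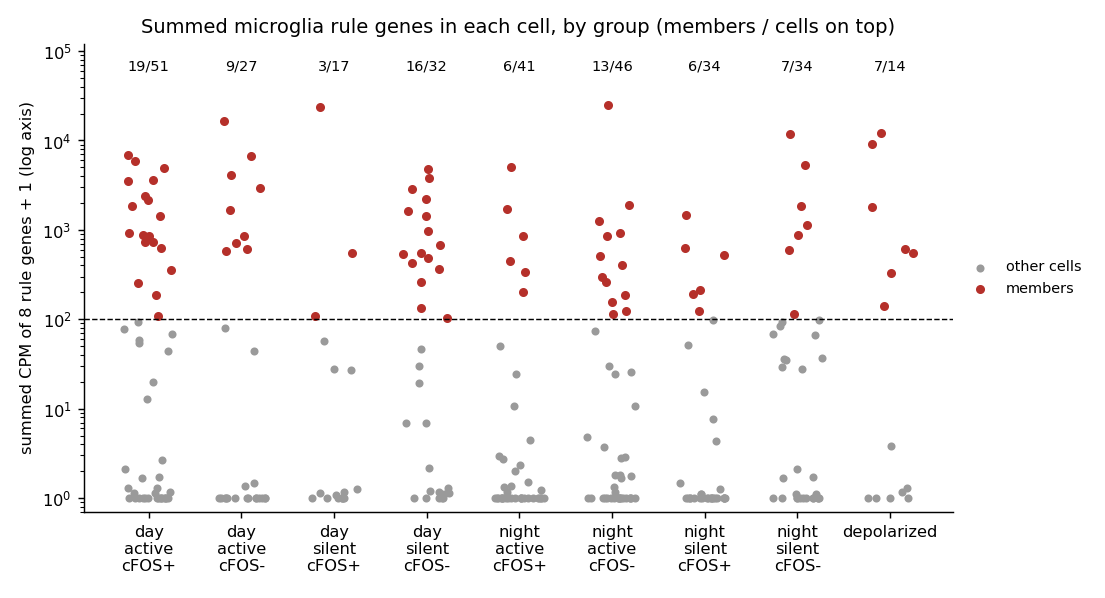
Summed CPM of the 8 rule genes plus 1 (log axis) in each cell, by group, with the number of members and of cells on top and the threshold as a dashed line; the 14 depolarized cells are shown together and the merged pair is not shown. Members (red) reached from 101.3 to 25064 CPM and were found in every group drawn.

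Members fell into those with several rule genes and those with 1. In 55 members 3 or more rule genes were present, in 9 members 2 and in 22 members 1, and among the other cells 3 or more were present in 1 cell. All 8 genes were present together in 6 members. The 22 single-gene members owed their place to Csf1r in 7 cells, Ctss in 5, C1qa in 4, C1qb in 4 and Aif1 in 2.

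After thinning every cell to 4210000 counts, which left 74 members and 193 other cells, a count of C1qb was found in 71.6% and 6.74% of them. C1qb was the most widespread rule gene, present in 58 of 86 members with a lowest, median and highest level of 0, 203 and 6439 CPM. Ctss, a lysosomal protease of myeloid cells, was present in 54 members with a median of 252.8 CPM and had the largest pooled level, 739 CPM over all members' counts together (95% Poisson interval 737 to 741) against 0.247 CPM in the other cells (0.222 to 0.274). Without cell S537 the pooled level of Ctss was 648 CPM. C1qa and Aif1, a calcium-binding protein of macrophages, were each present in 50 members. Such intervals cover counting error only and are narrower than the spread between cells, since counts came from amplified reads without molecular identifiers.

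The receptor genes were found in fewer members. Csf1r was present in 42 members, P2ry12 in 25, Cx3cr1 in 22 and Tmem119, a surface protein typical of microglia, in 11. In the members where they were present their medians were 261.6 CPM for Csf1r, 308 CPM for P2ry12, 222 CPM for Cx3cr1 and 205.7 CPM for Tmem119, above that of Aif1 (119 CPM) and C1qa (192.3 CPM) and below those of C1qb (478 CPM) and Ctss (554 CPM). Csf1r overlaps Hmgxb3, and P2ry12 overlaps Med12l and Cx3cr1 overlaps Wdr48, each on the opposite strand, and the labels do not say whether counting used the strand, so that reads of such pairs cannot be told apart. Among the 211 other cells Csf1r was present in 22, at 92.4 CPM or less, while each of the remaining rule genes was present in 1 to 7 cells.

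To see whether a rule gene kept company with the rest, each was left out of the sum in turn. Among the 81 cells that reached 100 CPM without C1qb, 53 (65.4%) had C1qb, against 9 of 216 other cells (4.17%). For Ctss the shares were 47 of 79 cells (59.5%) and 8 of 218 (3.67%), for P2ry12 24 of 85 (28.2%) and 2 of 212 (0.943%), and for Csf1r 33 of 77 (42.9%) and 31 of 220 (14.1%). Csf1r was the rule gene most often found by itself. C1qa and C1qb were both present in 42 cells, which made 80.8% of the cells with C1qa and 67.7% of those with C1qb, and all 42 were members.

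Across genes, 11985 genes were measured, which means a pooled level of at least 5 CPM in members or in the other cells. A gene was called when the pooled levels plus 1 CPM differed at least 2-fold and still did so without the cell with the most of that gene on each side. By this rule 799 genes (6.67%) were higher in members and 1082 (9.03%) were lower, and the median log2 ratio over all measured genes was -0.06. When the ratio was instead averaged within the 8 groups of active and silent cells, 3.97% were higher and 29.3% lower, around a median of -0.49. Fold values below are ratios of pooled CPM plus 1, and the gene lists they are grouped by are lists of known marker and pathway genes.

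Microglia identity genes outside the rule came along with the rule genes almost as a block. Of 50 listed genes, 49 were in the table and 43 were measured, all 43 were above the other cells and 39 were called higher, with a median log2 ratio of 3.64 against -0.06 for all measured genes. A gene that passed the 5 CPM limit through members alone had to lie above the other cells, so these counts describe the members and support nothing further. With cell S537 left out the median was 3.65, and by the mean over cells of log2 levels it was 1.31, with 24 called.

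C1qc, the third C1q chain, was present in 45 members with a pooled level of 380.3 CPM against 3.03 CPM in the other cells, 94.7-fold. Tyrobp, the signalling adaptor of Trem2, was present in 53 members and 10 other cells at 269.6 and 4.42 CPM, and its levels in members ran from 0 over a median of 83.8 to 3557 CPM. Laptm5, a lysosomal protein of blood-derived cells, was present in 45 members and 2 other cells at 267.2 and 1.24 CPM. Tyrobp thus reached about as many members as Ctss (54), and Laptm5 fewer than C1qb, Ctss, C1qa and Aif1.

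The Fc receptor genes Fcer1g (148 and 2.03 CPM) and Fcgr3 (67.3 and 0.497 CPM), the microglial Fcrls (112 and 0.246 CPM) and the selectin ligand Selplg (192.3 and 1.83 CPM) were 45.6- to 90.5-fold higher. Spi1, which encodes PU.1, a transcription factor of the myeloid lineage, was present in 16 members and 1 other cell at 55.1 and 0.122 CPM. Irf8, another myeloid factor, was present in 10 members and in no other cell, at 26.7 and 0.0278 CPM. Trem2, a lipid-sensing receptor, was present in 30 members and 3 other cells at 115 and 5.83 CPM.

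Not all identity genes were particular in this way, since the other cells also held some of them. Sparc, which encodes a matrix protein, was present in 59 members and 61 other cells at 571 and 92.5 CPM. Ly6e and Adgrg1, with 193 against 118 and 90.4 against 65.3 CPM, were not called, nor were Entpd1 and Mertk. Sall1, a nuclear factor that defines microglia, stood at 0.00172 CPM in members, and P2ry6, Hk2, Susd3, Gpr183 and Trim30a were likewise below 5 CPM on both sides.

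**Figure D2:**
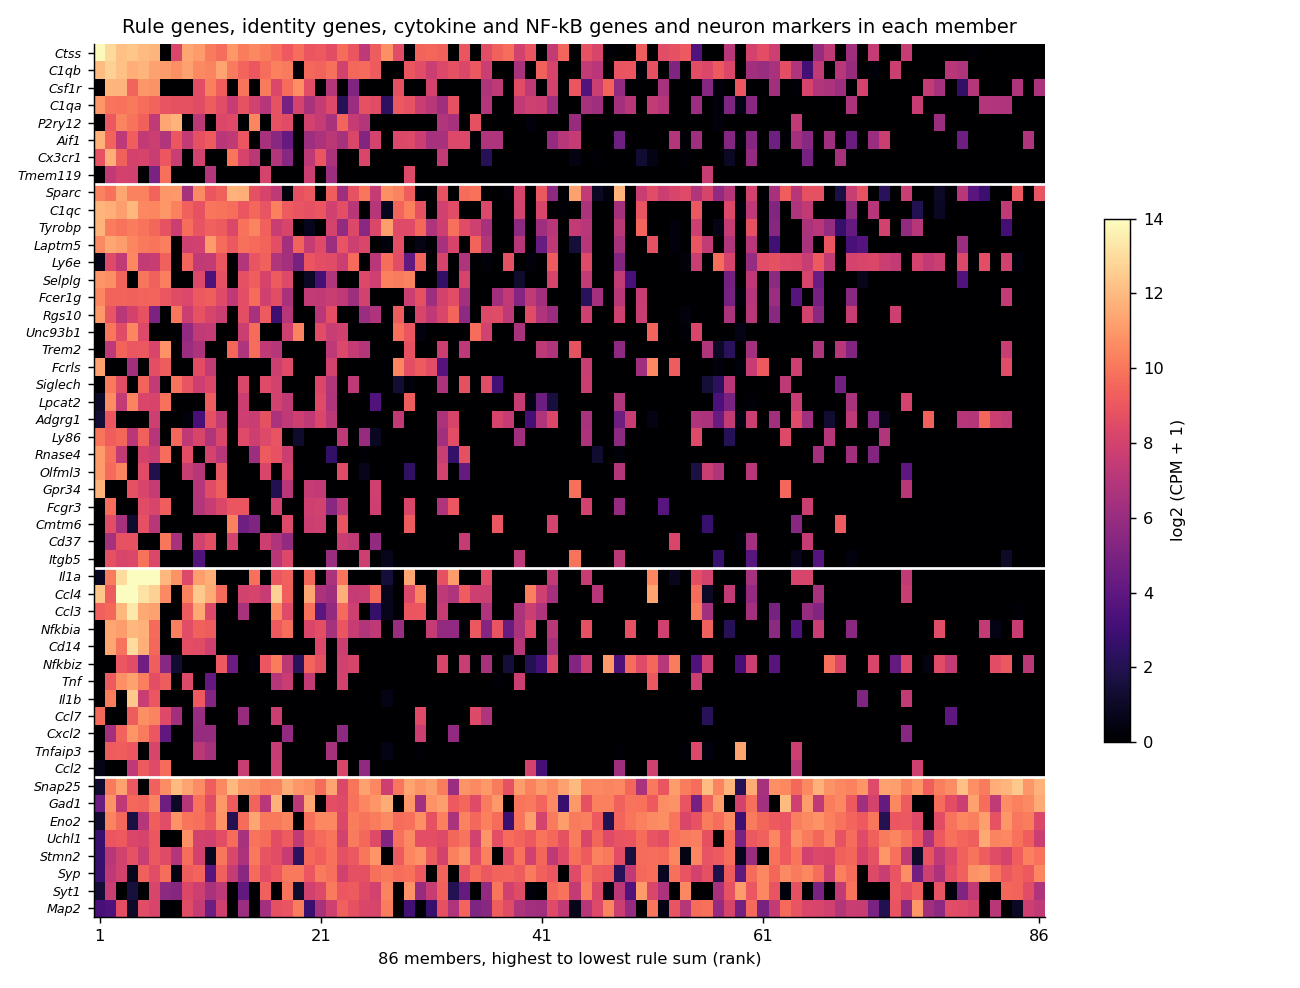
Level (log2 of CPM plus 1, colour) of the rule genes and of 22 identity genes, 12 cytokine and NF-kB genes and 8 neuron markers with large pooled levels in members (blocks from top to bottom), in each of the 86 members ordered by the summed rule genes. Microglial genes thin out from left to right, while the neuron markers run through all members but the first, cell S537.

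The number of identity genes followed the number of rule genes. Members with 3 or more rule genes had a median of 13 identity genes present and a summed level of 227 to 30156 CPM with a median of 4109 CPM. In single-gene members a median of 3 identity genes was present, with a summed level of 0 to 6284 CPM and a median of 682 CPM, and in the other cells a median of 2 genes with 0 to 1911 CPM and a median of 392.9 CPM. The range of the other cells lay within that of the single-gene members, whose median lay within the range of the other cells, and the name of microglia RNA rests on 1 gene in these 22 cells. Over the 86 members the summed rule genes and the summed identity genes had a Spearman rho of 0.81, both being shares of the same libraries.

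Cytokine and NF-kB response genes formed the second block. Of 27 listed genes 21 were measured. Of these, 20 were called higher in members (95.2%, against 6.67% of all measured genes) and none lower, and the median log2 ratio was 4.63. As for the identity genes, a gene that passed the 5 CPM limit through members alone had to lie above the other cells. These counts therefore describe the members and support nothing further. By the mean over cells of log2 levels, which gives each cell the same weight, the median was 1.01 and 11 were called. Nfkbiz, an NF-kB cofactor, was the measured gene not called, with 178 CPM in members and 180.4 CPM in the other cells, where 104 cells had it.

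Il1a, which encodes interleukin 1 alpha, had the largest fold of any gene named by the rule for named genes, 304-fold, with 1150.2 CPM in members and 2.79 CPM in the other cells. It was present in 29 members and 4 other cells, so that its median in members was 0 and its highest level 33102 CPM in cell S247. The chemokine genes Ccl4 (1139.7 and 3.15 CPM, 274.7-fold) and Ccl3 (370.5 and 2.26 CPM, 114-fold) were present in 40 and 31 members. Il1a was therefore concentrated in fewer cells than C1qb or Tyrobp.

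Tnf, tumour necrosis factor, was present in 15 members and no other cell at 109.5 and 0.00556 CPM, and Cd14, the co-receptor for bacterial lipopolysaccharide, in 12 members and no other cell at 199.06 and 0.00904 CPM. Nfkbia, the NF-kB inhibitor that NF-kB itself induces, was present in 40 members and 33 other cells at 273.02 and 26.8 CPM. Tnfaip3, another inhibitor of the pathway, was present in 11 members and 2 other cells at 57.4 and 3.28 CPM, and Cxcl2 in 13 and 2 cells at 57.9 and 1.38 CPM. Il1b was present in 8 members at a pooled 92.7 CPM, of which 71.1% of counts came from cell S247.

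Several genes often induced beside these were at or near 0. Il6, Cxcl1 and Csf3 had no count in any member, which allows a pooled level of up to 0.00515 CPM by counting alone, and Ptgs2 stood at 0.00172 CPM. The list was therefore not raised as a whole.

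Few cells held most of the cytokine RNA. Cells S247 (night, depolarized, cFOS-), S263 (night, silent, cFOS-), S491 (day, active, cFOS-) and S262 (night, depolarized, cFOS+) had summed cytokine and NF-kB genes of 91227, 42478, 38160 and 32251 CPM, and the next cell 15007 CPM. These 4 cells were also among the 6 members with the most rule gene RNA. Cell S408 (day, silent, cFOS+), second in rule genes with 23538 CPM, had 10865 CPM of cytokine genes with Il1a at 1133 CPM, beside Cx3cr1 at 3254 CPM. Cell S411 (day, active, cFOS-) had P2ry12 at 3565 CPM, the highest of all cells.

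Cell S247 alone gave 35.2% of the members' Il1a counts, and over active and silent members Il1a stood at 616 CPM. With cells S247 and S262 left out, a step chosen after seeing the data, the median of the cytokine list was 4.003 in place of 4.63. Of the 55 members with 3 or more rule genes 43 had at least 1 of Il1a, Ccl3, Ccl4 and Tnf, 12 had all 4 and 12 had none. Of the 31 members with 1 or 2 rule genes 4 had any of them, as had 12 of the 211 other cells.

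**Figure D3:**
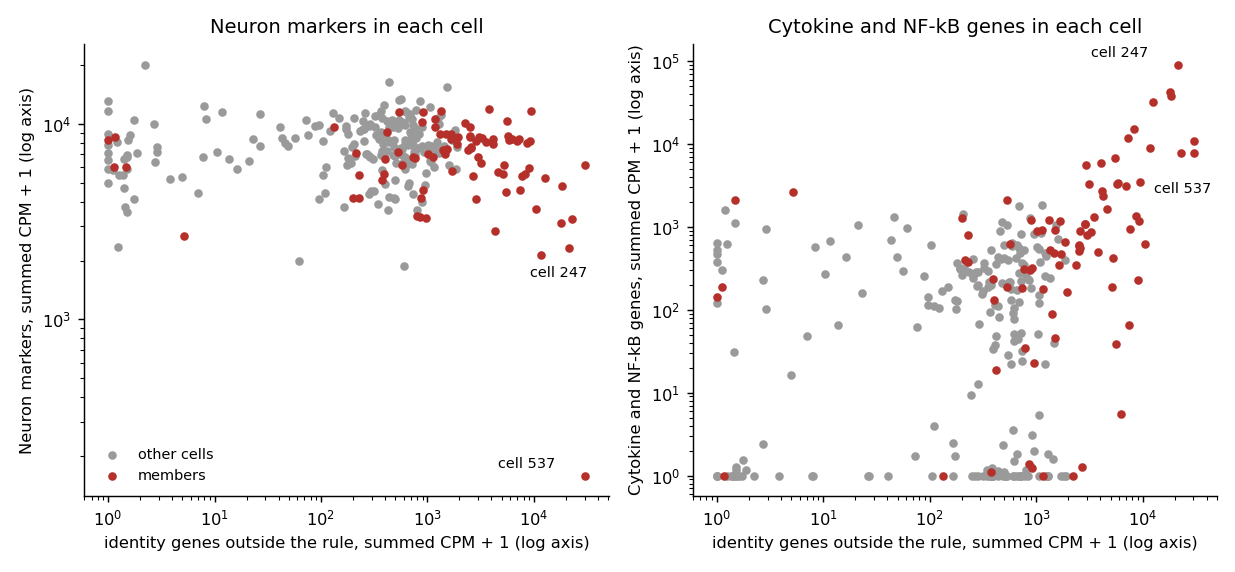
Summed CPM plus 1 of the neuron markers (left) and of the cytokine and NF-kB genes (right) against the summed CPM plus 1 of the identity genes outside the rule, in each cell, all axes log. Cell S537 lies at 158 CPM of neuron markers, far below every other cell, and cell S247 has the most cytokine RNA, 91227 CPM.

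Rule, identity and cytokine genes together made up 0.0251% to 12.5% of a member's counts, with a median of 0.348%. In 21 members, all with 3 or more rule genes, the share was above 1%. In the other cells it was 0 to 0.300%, with a median of 0.0605%.

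Lysosomal and phagocytic genes, which microglia use to break down engulfed material, were higher in part. Of 22 genes, all measured, 10 were called higher (45.5%, against 6.67% of all measured genes) and none lower. Their median log2 ratio was 0.68. The cysteine protease inhibitor Cst3 was present in 84 members and 200 other cells, with medians of 2167 and 608 CPM and pooled levels of 3537 and 749 CPM, to which cell S537 gave 9.53% of the members' counts. The protease Ctsd had pooled levels of 1804 and 542.9 CPM, and Ctsh and Lyz2, the latter a lysozyme of myeloid cells, 108 and 2.21 CPM and 67.8 and 0.00278 CPM. Ctsb (855 and 769 CPM) and Lamp1 (620.1 and 505.8 CPM), which neurons also express, were not called.

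Genes of disease-associated microglia came along in part. Of 16 listed genes 8 were measured, 7 were above the other cells and 3 were called higher (37.5%, against 6.67% of all measured genes). The median log2 ratio was 0.99. The called genes were the lipid carrier Apoe (539.8 and 213 CPM), the chemokine Ccl6 (56.4 and 2.17 CPM) and Cd52 (15.1 and 0.242 CPM), while Spp1, Itgax, Gpnmb, Cst7 and Igf1 were below 5 CPM on both sides. Of 22 antigen presentation and interferon genes 13 were measured, 6 called higher (46.2%, again against 6.67%) and 1 lower. The class I genes B2m (155 and 39.97 CPM), H2-D1 (145 and 58.6 CPM) and H2-K1 (40.4 and 4.97 CPM) were among the higher ones, and the interferon factor Irf7 (2.25 and 9.79 CPM) was the lower one. The median log2 ratio of this list was 1.29, and 0.21 without the top cell of each gene on each side.

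Listed markers of other macrophages and of blood leukocytes stayed low in the pooled counts. None of the 12 border macrophage genes and none of the 16 leukocyte genes reached 5 CPM on either side. The defining border macrophage genes Mrc1 (0.103 CPM), Pf4 (0.357 CPM), Lyve1 (no count) and Ms4a7 (0.00515 CPM) were near 0 in members, as were Ccr2 (0.299 CPM) of monocytes, S100a8 (0.0326 CPM) of neutrophils and Cd3e (0.00859 CPM) of T cells. The summed border macrophage genes ranged over 0 to 344.5 CPM in members and 0 to 699.8 CPM in the other cells, both with a median of 0. The summed leukocyte genes ranged over 0 to 389.1 CPM and 0 to 159.8 CPM, with medians of 0, and in 1 member 3 of them were present. Ighm, a B cell gene outside the list, was present in 15 members and 3 other cells at 81.4 and 2.55 CPM, and the part of leukocyte RNA was not tested.

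Markers of other glia moved with the members to a smaller degree. Of 14 oligodendrocyte lineage markers 7 were measured and 5 called higher (71.4%, against 6.67% of all measured genes). Their median log2 ratio was 1.77, and the myelin genes Mbp (410.6 and 119.7 CPM) and Mobp (171 and 20.03 CPM) led them. Their summed level was 0 to 9459 CPM in members (median 143 CPM) and 0 to 5725 CPM in the other cells (median 35.1 CPM), and the lineage factor Sox10 stood at 0.158 and 0.223 CPM. Of 16 astrocyte markers 15 were measured and 5 called higher (33.3%), with a median log2 ratio of 0.73 that fell to 0.26 without the top cells. As the mean of the ratios within the 8 groups this median was -0.15, so the direction turned. By the mean over cells of log2 levels 0 were called. Gfap had 127 and 27.7 CPM, with 52.6% of its members' counts from cell S92, and Aldoc (468 and 224 CPM) was not called.

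The summed astrocyte markers were 0 to 13991 CPM in members (median 685 CPM) and 0 to 7823 CPM in the other cells (median 586 CPM). Within members the summed rule genes had a Spearman rho of 0.14 with the astrocyte and 0.10 with the oligodendrocyte markers, against 0.81 with the identity genes. Endothelial and mural markers were measured for 1 of 14 genes, Pecam1, which was lower (3.41 and 10.8 CPM). The part of these other cells' RNA in the results was not tested.

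Neuron genes were present in members at about the level of the other cells, cell S537 aside. None of 16 neuron markers was called in either direction, where 6.67% of all measured genes were called higher and 9.03% lower. Of the 16 markers, 6 were above and 10 below the other cells, and the median log2 ratio was -0.10. Snap25, a synaptic fusion protein, was present in 83 of 86 members and 207 of 211 other cells with medians of 1512 and 1497 CPM, and Gad1, the GABA-synthesizing enzyme of SCN neurons, in 76 and 186 cells with medians of 701 and 1217 CPM. The pooled Gad1 level, 950.2 and 1455 CPM, was lower in members in 8 of the 8 groups of active and silent cells, by less than 2-fold overall. None of 20 synaptic vesicle and release genes and none of 23 clock genes was called. At the shares over all measured genes, lists of this size would hold few calls. Within members the summed neuron markers had a Spearman rho of -0.28 with the summed rule genes, both again being shares of 1 total.

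Neuropeptide genes, which mark SCN cell types, gave no common direction. Of 15 measured, the GRP gene Grp (83.9 and 20.7 CPM) and Pdyn (39.3 and 17.3 CPM) were called higher (13.3%). Nts (35.9 and 259.6 CPM) and Sst (135.6 and 421.8 CPM) were among 3 called lower. Over all measured genes 6.67% were called higher and 9.03% lower. Few cells carried these genes, 3 members and 16 other cells for Nts and 7 and 10 cells for Grp. Among cells with Vip at 100 CPM or more 15 of 55 were members (27.3%, exact 95% binomial interval 16.1 to 40.96), and among those with Avp at that level 29 of 102 (28.4%, 19.9 to 38.2). Both shares were close to that of all cells, 28.96%.

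The neuronal partners of microglial receptors, Cx3cl1 (238.2 and 319.5 CPM), Cd200 (542.9 and 652 CPM) and Cd47 (342 and 390.02 CPM), were not called. Of the phosphate transport genes, the theme of the study's title, none of 10 measured was called, with Xpr1 at 99.5 and 94.1 CPM and Slc20a1 at 105 and 165 CPM. Mitochondrially encoded genes were above the other cells for all 11 measured genes, with a median log2 ratio of 1.08. Of these, 3 were called higher (27.3%, against 6.67% of all measured genes), and 1 without cells S247 and S262. Cell S92 gave 19.1% of the members' mt-Co1 counts. Of 31 immediate early genes, which neurons induce on firing, 5 were called higher (16.1%) and 3 lower. Arc (458 and 189.5 CPM) and Atf3 (373.4 and 157.4 CPM) were among the higher ones. Over all measured genes 6.67% were called higher and 9.03% lower, so the lower calls were near that share.

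**Figure D4:**
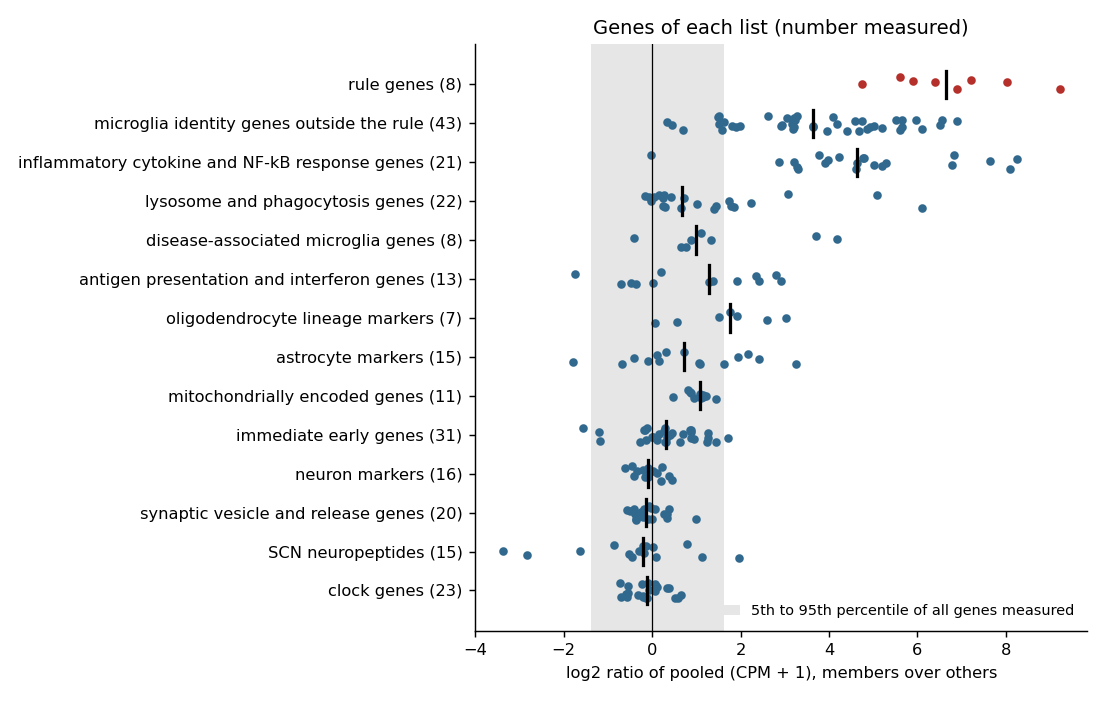
Log2 ratio of pooled CPM plus 1, members over other cells, for each measured gene (point) of 14 lists, with the list median (black bar) and the 5th to 95th percentile of all measured genes (grey). Identity and cytokine genes lie to the right, at medians of 3.64 and 4.63, and neuron markers and clock genes around 0.

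The 25 higher genes named by a rule of size and recurrence, with the rule genes left out, were 35.2- to 304-fold higher. Of these 25, 10 stood on none of the lists. Beside those described above they were Unc93b1, needed for nucleic acid sensing by Toll-like receptors (127 and 1.04 CPM), Ctsc, Arhgdib, Ptgs1, the cyclooxygenase 1 gene (68.8 and 0.124 CPM), Bcl2a1b, Lcp1, the actin-bundling plastin of leukocytes (57.2 and 0.016 CPM), Litaf, Bin2, Smim3, Lgals9, Cd37 and Srgn. Bcl2a1b has near-identical copies, and its counts may be shared with them.

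The lower genes named by the same rule formed no listed group. Scrib, a polarity scaffold, was present in 6 members and 45 other cells at 2.07 and 22.5 CPM, and Zfp397, a zinc finger gene, in 7 and 43 cells at 4.07 and 51.8 CPM. The others were Zfp940, Map3k19, Tspan14, Maneal, Tmem121, Mrs2 and Pnpla7. Each of these was present in at most 21.3% of the other cells.

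Genes whose level was most like the summed rule genes over all distinct cells were Tyrobp (Spearman rho 0.63), Laptm5 (0.61), Fcer1g (0.60), C1qc (0.59) and Ccl4 (0.50). Cyba, a subunit of the phagocyte oxidase, followed at 0.48 and Selplg at 0.48. Ftl1 and Fth1, the ferritin chains, had a rho of 0.47 and 0.46, though both were present in nearly all cells, with medians of 801 CPM in members and 343.98 CPM in the other cells for Ftl1. The points share a total of counts per cell, and many of them are 0.

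Members were found in every labelled group of cells. They made up 51 of the day cells (37.5%, exact 95% interval 29.4 to 46.2) and 35 of 161 night cells (21.7%, 15.6 to 28.9). Among cFOS+ cells 36 of 148 were members (24.3%, 17.7 to 32.1) and among cFOS- cells 50 of 148 (33.8%, 26.2 to 42.01). Active cells had 47 of 165 (28.5%, 21.7 to 36.02) and silent cells 32 of 118 (27.1%, 19.3 to 36.1), and 7 of 14 depolarized cells were members (50%, 23.04 to 76.96).

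By share, day silent cFOS- cells stood highest of the 8 groups of active and silent cells with 16 of 32 (50%, 31.9 to 68.1) and night active cFOS+ cells lowest with 6 of 41 (14.6%, 5.57 to 29.2). The intervals treat cells as independent, which cells of 1 slice need not be. Day exceeded night both among the lower cell numbers in the labels (39.7% and 25.3%) and among the higher ones (35.9% and 17.1%). Time of day and slice cannot be told apart, since day and night cells came from different slices.

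Within members the receptor genes were higher by day, and so were most astrocyte markers. Pooled over 47 day and 32 night members that were active or silent, P2ry12 had 243 and 63.8 CPM and was present in 17 and 6 cells, Csf1r 396.3 and 137.4 CPM in 24 and 14 cells, and Cx3cr1 146 and 43.8 CPM in 15 and 5 cells. Tmem119 had 53.1 and 2.09 CPM, in 7 and 1 cells. These 4 were called, where 16.9% of 11914 measured genes were called higher by day and 10.7% lower in the same members, and 5.26% and 9.93% in the other cells. Ctss (695 and 655 CPM), C1qa (189.998 and 151 CPM) and C1qb (704 and 423.2 CPM) differed less than 2-fold. Aif1 (117 and 147 CPM) had no one direction, with a pooled log2 ratio of -0.33, and of 0.18 without the top cell of each side, which by night was S537 at 3358 CPM, and it was present in 34 day and 12 night members.

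**Figure D5:**
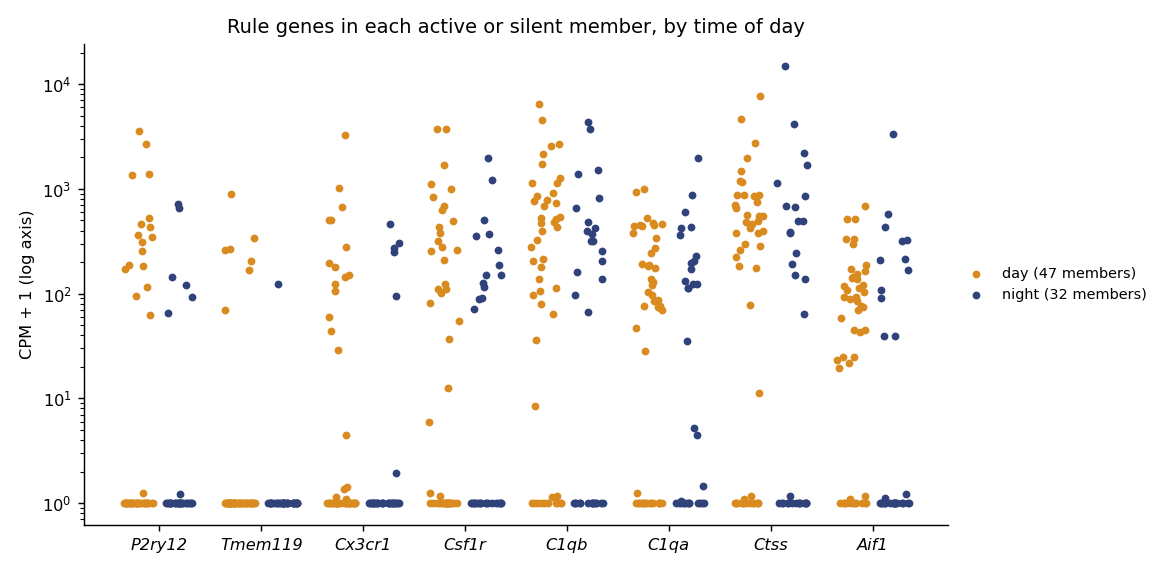
CPM plus 1 (log axis) of each rule gene in each active or silent member, by time of day. For every gene the day and night cells overlap, and more day than night cells lie above 0 for P2ry12, 17 of 47 against 6 of 32.

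Of 43 identity genes 35 were above the night members by day, 12 were called higher and 3 lower, with a median log2 ratio of 0.69. Unc93b1 (186 and 29.4 CPM) and C1qc (446.7 and 196.5 CPM) were among the higher ones, and Gpr34 (41.1 and 111 CPM), of which the night cell S537 held 3528 CPM, was lower. Among the lower cell numbers alone 22 identity genes were above 0, so this count moved by more than 1.5 times. Of 21 cytokine genes 9 were above 0, and Il1a (605 and 632 CPM), Ccl4 (922 and 804 CPM) and Nfkbia (233.5 and 212.5 CPM) were not called. Astrocyte markers differed more than the identity genes. In members 13 of 14 were above 0 by day, 9 called higher and 1 lower, with a median log2 ratio of 1.84. In the other cells 11 of 14 were above 0, with a median of 0.45. A day difference was thus not particular to microglial genes.

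Of 23 clock genes 13 were above 0 by day, 4 were called higher and 1 lower, a share near that of all genes. Dbp (265.4 and 87.7 CPM) and Ciart (135 and 23.4 CPM) were among the higher ones and Clock (26.3 and 91.9 CPM) was the lower one, while Per1 (73.3 and 84.2 CPM) and Per2 (155.4 and 234.1 CPM) were not called.

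Firing and the cFOS label went with little in the microglial genes. Between 47 active and 32 silent members 23 of 43 identity genes and 10 of 21 cytokine genes were above 0, with 5 identity genes called in each direction, where 16% and 10.5% of all genes were called higher and lower in members and 7.38% and 6.31% in the other cells. P2ry12 was called higher in active members (224 and 97.2 CPM) and Cd14 lower (49.1 and 166.5 CPM). Between 34 cFOS+ and 45 cFOS- members 19 of 42 identity genes were above 0, 3 were called higher and 8 lower, where 11.9% and 14.3% of all genes were in members and 6.32% and 7.85% in the other cells.

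Il1a had 298.2 CPM in cFOS+ and 836 CPM in cFOS- members, present in 13 of 34 and 13 of 45 cells. It was called lower, as were 3 other cytokine genes of 21. Pooled, 7 of the 21 were above 0, but 13 were by the mean over cells of log2 levels, so the direction turned. With that mean 25 of 42 identity genes were above 0, where 7466 of 11940 measured genes were. Immediate early genes were below the cFOS- members for 26 of 30 measured genes, with 9 called lower and 1 higher, and Fos itself had 1823 and 3009 CPM and was not called. By the mean over cells of log2 levels 11 of the 30 were above 0. The interaction of these labels with membership was not tested.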

How the data were processed

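The deposited table holds whole-number read counts per gene symbol for each cell, made by the authors, and a second deposited table holds the same counts divided by 1 factor per cell, in the unit of a normalized signal, for every library. STAR, DESeq2 and the build GRCm38.p4 stand in the submitters' processing notes, without versions, and neither the annotation nor strand handling is stated there. Reads carried no molecular identifiers, so intervals cover counting error only.

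From the counts, CPM, pooled CPM with exact 95% Poisson intervals, and shares with exact Clopper-Pearson 95% intervals were computed (Python 3.11.15, numpy 2.4.6, pandas 2.3.3, scipy 1.17.1). Libraries S70 and S71 correlated at 1.00 across genes and were averaged. With 1 sample a side no test was run. Genes needed 5 CPM on one side, the pseudocount was 1 CPM, and a call needed a 2-fold pooled ratio that held without the top cell of each side. The calling step was tested on simulated counts. The deposited signal served for an alternative with the authors' size factors.

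The 25 higher and 10 lower genes named as a group had 20 CPM on one side, a count after thinning in 15% of the cells of the higher side, and the same direction by every measure and in 6 of the 8 groups of active and silent cells, and were ranked by the smaller of the pooled ratio and the ratio without top cells. Of each list, the members with the largest pooled levels could also be named, and other genes named were chosen after their values were seen. The members and lists were chosen with earlier results of these data known. Some genes that met these rules are not reported here.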

Additional observations from a re-analysis of the deposited data

Results flagged for a closer look

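Among the 7 day depolarized cFOS- cells, cell S349 stood far above the others in the summed rule genes, with 1790.65 CPM against 327.3 CPM in the next cell, a gap that took up most of the range of the group. Gaps past the limit used for flagging arise by chance in about 1 in 20 groups of normally distributed values. The gap of cell S349 lay past that limit, and how often a gap of its size arises was not computed. Several of the 7 sums were at or near 0, so a rate for normally distributed values need not hold for them. The summed rule genes chose the members, and the labels name no animal for the 7 cells, so the gap is a description and no test of a difference. The summed neuron markers of the same 7 cells ranged from 5988 to 9541 CPM without such a gap, and none was seen in their summed identity or cytokine genes.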

How the results depend on the processing

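Membership was 86 cells, 34 at a threshold of 1000 CPM and 56 when at least 3 of the 8 genes were required, and within 1.5 times of 86 at 50 and 200 CPM, with each rule gene left out in turn, without the near-identical pair and with the authors' size factors. At 1000 CPM the shares were 16.2% by day and 7.45% by night, 11.5% in active and 10.2% in silent cells, and 9.46% in cFOS+ and 13.5% in cFOS- cells. Genes called higher were 6.67% of those measured, and 1.84% by the mean over cells of log2 levels, 3.97% by the mean within the 8 groups, 2.15% with a pseudocount of 10 CPM and 4.73% with a 20 CPM limit. Genes called lower were 9.03%, and 21.4% at 1000 CPM, 1.25% by the mean of log2 levels, 29.3% within groups, 14.6% without the top cells, 1.88% with the larger pseudocount, 5.94% with the 20 CPM limit and 16.7% for the higher cell numbers. The mean within groups moved the median log2 ratio of all genes from -0.06 to -0.49. By the mean of log2 levels 24 identity and 11 cytokine genes were called. Oligodendrocyte markers called numbered 2 by the mean of log2 levels and 2 within groups. Astrocyte markers called numbered 0 by both of these, and 3 at 1000 CPM, with the larger pseudocount and among higher cell numbers. Mitochondrial genes called numbered 6 at 1000 CPM, 7 with 3 rule genes required, and 1 by the mean of log2 levels, with the larger pseudocount, the 20 CPM limit, active and silent cells only, higher cell numbers, or without cells S247 and S262. Neuron markers above 0 numbered 10 at 50 CPM, 10 with 3 rule genes required, 3 within groups and 3 with the authors' size factors. Clock genes above 0 numbered 3 by the mean of log2 levels, 5 within groups, 16 for the lower cell numbers and 3 for the higher ones. Identity genes above 0 by day numbered 22 among lower cell numbers. Immediate early genes above 0 in cFOS+ members numbered 11 by the mean of log2 levels, 7 for the lower cell numbers and 13 for the higher ones. The cause of these shifts was not tested. Of the recomputed counts and shares 48 moved, and no direction of a named or rule gene reversed. The settings without cell S537 and without cells S247 and S262 were chosen after seeing the data. No paired analysis was possible because no result comes from a test and cell numbers, with the exception of 1 number given to S253 and S253-2, stand for 1 cell each. Each group is 1 sample, and a gene absent from a cell may lie below its depth.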

Other observations

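Some genes outside the lists, chosen after their values were seen, also differed between members and other cells. The iron storage chain Fth1 had pooled levels of 4055 CPM in members and 1354 CPM in the other cells, and the actin-binding thymosin gene Tmsb4x 1877 and 456.2 CPM. Trf, which encodes the iron carrier transferrin, had 264.9 and 18.7 CPM. Ighm, the immunoglobulin heavy chain gene of B cells, had 81.4 and 2.55 CPM and was present in 15 members and 3 other cells, and all 15 members with Ighm also had C1qb.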
